A study of Homo sapiens with 8 samples.

Results

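Imprinted genes are expressed mainly from the maternal or mainly from the paternal copy, and 41 human genes known to be imprinted were followed here in cells depleted of UHRF1. They were picked by gene symbol from known imprinted genes, and all 41 were found among the 60649 gene identifiers of every library. The rule used no expression value, but the list was chosen with earlier results of these data known. Of the 41, 35 are annotated as protein-coding and 6 as long non-coding RNAs, namely H19, KCNQ1OT1, MEG3, MEG8, MESTIT1 and HYMAI.

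The cells were HCT116, a line from a human colorectal carcinoma, and UF1hypo, a single clone of HCT116 in which exon 4 of a single UHRF1 allele was excised, so that these cells are UHRF1 +/-. Lentivirus brought either a control hairpin, shScr, or the UHRF1 hairpin shUHRF1 into each line, which was then selected with puromycin, which gave 4 groups of 2 libraries: HCT116 shScr, HCT116 shUHRF1, UF1hypo shScr and UF1hypo shUHRF1. Polyadenylated RNA was sequenced, and expression is given as TPM, a transcript level scaled for the length of the gene and the size of the library. All 4 groups share the HCT116 background, the lentivirus and the puromycin selection. UF1hypo had in addition gone through Cas9 editing, G418 selection, an adenovirus with Cre recombinase and single-cell cloning. Since UF1hypo is 1 clone, a difference between UF1hypo and HCT116 cannot be told apart from an effect of that history. Nor can it be told apart from a difference between any clone and its parental cells.

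The parental copy of an imprinted gene is marked by DNA methylation that is laid down in the germ line at an imprint control region. That methylation is copied at each cell division by DNMT1, which UHRF1 guides to newly replicated DNA, and zinc finger proteins such as ZFP57 and ZNF445 protect it in the early embryo. Many imprinted genes lie in clusters that share a control region and regulate growth, and loss of imprinting at H19 and IGF2 is well known in colorectal tumours. The reads were not assigned to parental alleles and DNA methylation was not analysed here, so the values give the total RNA of a gene and not its imprint.

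The promoters of 4 members with large differences are shown for their CpG dinucleotides, the sites that DNMT1 methylates. They are RefSeq sequences of GRCh38.p14, each 300 bases that span the transcription start, written 5′ to 3′ on the strand of the gene with each CpG in capitals. H19 lies at chr11:2001217-2001516 on the minus strand, MEG3 at chr14:100825858-100826157 on the plus strand, CPA4 at chr7:130292911-130293210 on the plus strand and FAM50B at chr6:3849123-3849422 on the plus strand.
H19: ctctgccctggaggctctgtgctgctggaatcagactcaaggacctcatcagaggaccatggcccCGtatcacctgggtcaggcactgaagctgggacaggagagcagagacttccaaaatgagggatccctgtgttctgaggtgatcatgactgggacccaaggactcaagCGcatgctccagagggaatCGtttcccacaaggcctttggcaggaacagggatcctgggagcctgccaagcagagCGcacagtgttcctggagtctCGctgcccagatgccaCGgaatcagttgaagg
MEG3: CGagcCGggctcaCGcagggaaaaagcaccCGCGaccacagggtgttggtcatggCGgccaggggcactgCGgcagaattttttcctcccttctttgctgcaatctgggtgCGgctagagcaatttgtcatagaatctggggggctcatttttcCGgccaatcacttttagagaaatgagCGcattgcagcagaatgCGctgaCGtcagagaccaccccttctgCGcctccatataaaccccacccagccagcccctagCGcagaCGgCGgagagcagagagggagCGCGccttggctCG
CPA4: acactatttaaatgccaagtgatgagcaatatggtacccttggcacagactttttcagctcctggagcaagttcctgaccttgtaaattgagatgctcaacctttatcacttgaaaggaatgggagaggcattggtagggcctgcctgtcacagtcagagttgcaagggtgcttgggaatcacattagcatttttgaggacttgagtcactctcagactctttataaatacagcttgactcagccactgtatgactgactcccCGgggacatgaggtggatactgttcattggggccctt
FAM50B: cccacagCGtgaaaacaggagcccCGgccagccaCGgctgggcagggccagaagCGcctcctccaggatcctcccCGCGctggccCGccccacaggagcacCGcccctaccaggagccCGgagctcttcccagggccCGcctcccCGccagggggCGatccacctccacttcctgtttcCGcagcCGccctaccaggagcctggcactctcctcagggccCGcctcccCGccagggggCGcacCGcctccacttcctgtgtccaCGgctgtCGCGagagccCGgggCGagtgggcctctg
CPA4 held 1 CpG, H19 held 6, MEG3 held 19 and FAM50B held 23. The table held a promoter for 27 of the 41 members, with a median of 19 CpGs against 14 over the promoters of all 27305 genes, where the first listed start was taken for a gene with several, as for MEG3 with 3. The 14 members without an entry were IGF2, KCNQ1OT1, CDKN1C, PHLDA2, KCNQ1, SLC22A18, MEG8, DLK1, PEG3, ZIM2, PEG10, SGCE, NNAT and KCNK9. The hexamer TGCCGC, the core of the ZFP57 motif, was searched on both strands and was present in 11 of the 27 member promoters and in 16.7% of all promoters of the same length. It was found in the window of MEG3 and in none of the windows of H19, CPA4 and FAM50B. A match of these letters is a description of the sequence and not a binding site.

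Between 5.42 and 7.84 gigabases were aligned per library, and Pearson's r between the replicates, across genes, was 0.987 in 3 of the groups. The pair of UF1hypo shUHRF1 libraries stood apart with an r of 0.959, and the GC content of a gene went with the difference between them (Spearman's rho 0.70, taken over genes and not over independent samples). The same rho was -0.36 between the UF1hypo shScr libraries, which are the control of the knockdown and an arm of the clone comparison, and -0.03 and -0.04 in the HCT116 groups. UHRF1 itself was at 87.5 and 98.4 TPM in HCT116 with shScr against 31.7 and 32.7 with shUHRF1, and in UF1hypo at 47.3 and 50.6 with shScr against 34.1 and 21.1 with shUHRF1. In each line both knockdown libraries lay below both control libraries, and the log2 fold change was -1.50 ± 0.22 (SE, adjusted p = 0.0743) in HCT116 and -0.84 ± 0.22 (adjusted p = 0.0467) in UF1hypo. Of 8 markers of colon epithelium, EPCAM, CDH1, CDX2, KRT8 and KRT18 exceeded 1 TPM, and VIL1, CDX1 and LGALS4 did not. The summed level of the list ran from 3038 TPM in HCT116 shScr to 8724 in UF1hypo shUHRF1. Most of that sum was KRT8, with group means from 1552 to 4280 TPM, and KRT18, from 1064 to 3166, and both were called higher in the clone (adjusted p = 0.00619 and 0.00154). EPCAM had a mean of 342 TPM in UF1hypo shScr and 244 in UF1hypo shUHRF1, a log2 fold change of -0.55 that did not pass the test. Leukocyte markers summed to at most 3.32 TPM and endothelial markers to at most 0.59 in any library, and of 6 fibroblast markers only COL1A1 exceeded 1 TPM, with a summed level between 21.2 and 66.2 TPM and the highest sums in UF1hypo shUHRF1. The part of these markers and of GC content in the results was not tested, beyond the GC content correction given where it changes a call.

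Of the 41 imprinted genes, 28 exceeded 1 TPM in at least 1 library, and 22 of them did so in all 8. PEG3, ZIM2, SNRPN, SNURF, NDN, MAGEL2 and USP29 were listed at 0 in all 8 libraries, and KCNQ1OT1, MEG8, DLK1, RTL1, MESTIT1 and HYMAI were above 0 but stayed at or below 1 TPM. SNURF and SNRPN share 52.1% of the exonic bases of SNURF on the same strand, and whether their 0 reflects the cells or the quantification was not tested. The genes at 0 hold 4 of the 6 members at 15q11 and 3 of the 4 at 19q13, among them NDN and MAGEL2, which encode MAGE family proteins. MKRN3, a ubiquitin ligase gene of 15q11, lay at 7.23 to 11.5 TPM and UBE3A, the ubiquitin ligase gene of Angelman syndrome, at 22.1 to 42.7. At the other end, GNAS, which encodes the stimulatory G protein alpha subunit, lay between 708 and 953 TPM and PHLDA2, a growth-restraining gene of the placenta, between 475 and 741. How many reads lie behind a value is unknown for most members. For the members quantified as a single transcript the mean coverage per base is a direct depth, and it was at most 0.93 for KCNQ1OT1, 1.88 for RTL1 and 0.43 for MESTIT1, against 1.14 to 15.4 for KLF14.

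**Figure D1:**
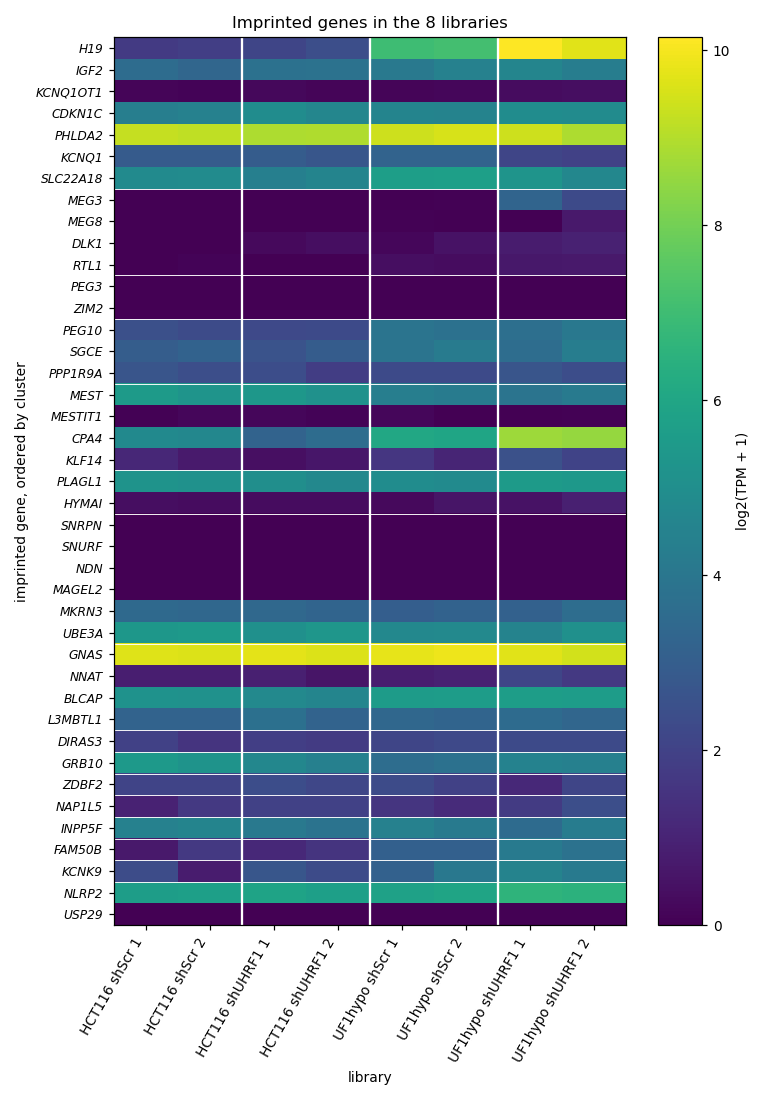
Expression of the 41 imprinted genes (rows, ordered by cluster and separated by thin lines) in the 8 libraries (columns, replicates 1 and 2 of each group). Colour gives log2(TPM + 1). GNAS and PHLDA2 are high in all 8 libraries, H19 passes from 2.35 TPM in HCT116 shScr to 1134 in UF1hypo shUHRF1, and 7 rows are at 0 throughout.

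The knockdown in UF1hypo set shUHRF1 against shScr in cells with less UHRF1 RNA than HCT116 under shScr. That difference had a log2 fold change of -0.91 and was not called (adjusted p = 0.0676). By Western blot, the paper reports UHRF1 protein well below that of HCT116 in this clone, a measure apart from the RNA read here. The paper lists a single UHRF1 hairpin, so loss of UHRF1 and other effects of the hairpin cannot be told apart here. H19, CPA4, MEG3 and NNAT rose and KCNQ1 fell. A gene was tested when it exceeded 1 TPM in at least 1 library of the comparison, and it was called when the Benjamini-Hochberg adjusted p of the limma fit, over all genes tested, was below 0.05 and the log2 fold change was above 1 or below -1. The fold change is a difference of means of log2(TPM + 1), which understates the change of low genes. Of 28 members tested, 4 were called higher (14.3%), where 7.33% of all genes tested were, and 1 was called lower, where 0.922% of all genes were. MEG3 and NNAT passed the filter through UF1hypo shUHRF1 alone and so could only be higher there, as could 719 of the 1375 genes called higher among all genes. Of the 26 members above 1 TPM in both groups, 2 were called higher (7.69%), against 4.29% of all such genes. The members had a median log2 fold change of 0.21 and all genes tested one of 0.10, with 20 members above 0 and 8 below it. Over all genes 88.8% of the calls were higher, 72.2% after quantile normalization and 77.7% after a correction for GC and gene length. The directions of the 5 called members held under each of those scalings.

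H19 (ENSG00000130600.19; chromosome 11, 1995176 to 2001470 on the minus strand) is a maternally expressed long non-coding RNA and the host of miR-675. In HCT116 its level was 2.35 and 2.68 TPM with shScr and 3.34 and 4.47 with shUHRF1, and in UF1hypo it was 128 and 137 with shScr and 1134 and 827 with shUHRF1. The UF1hypo shUHRF1 libraries were the highest of the 8, and no group overlapped another. The knockdown raised the mean in UF1hypo from 133 ± 6.02 to 980.5 ± 217 TPM (SD, n = 2), a ratio of 7.39, and the log2 fold change was 2.86 ± 0.20 (SE, adjusted p = 0.000131). The exons of H19 shared 2.11% of their bases with MIR675 on the same strand.

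CPA4 (ENSG00000128510.12; chromosome 7, 130293134 to 130324180 on the plus strand) encodes carboxypeptidase A4, a secreted zinc protease. It was at 67.6 and 60.7 TPM in UF1hypo shScr, against 406 and 376 in UF1hypo shUHRF1. The knockdown libraries lay well above the controls, and the mean rose from 64.2 ± 4.89 to 391 ± 21.1 TPM (SD, n = 2), a ratio of 6.10. The log2 fold change was 2.59 ± 0.17 (SE, adjusted p = 9.63e-05). CPA4 shared no exon with another annotated gene.

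MEG3 (ENSG00000214548.18; chromosome 14, 100779410 to 100861031 on the plus strand) is the maternally expressed long non-coding RNA of the DLK1 cluster. It was listed at 0 in the 4 HCT116 libraries and in UF1hypo shScr replicate 1, stood at 0.034 TPM in UF1hypo shScr replicate 2, and was at 8.67 and 3.81 TPM in UF1hypo shUHRF1. It was thus above 1 TPM in the UF1hypo shUHRF1 libraries only, so that it passed the filter through them alone. The log2 fold change of 2.75 ± 0.33 (SE, adjusted p = 0.00187) depends on the added 1, and it was 5.66 with 0.1 in its place. Whether a low level comes from all cells or from a part of them cannot be told apart in bulk RNA, for MEG3 or any other member.

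KCNQ1 (ENSG00000053918.18; chromosome 11, 2444684 to 2849105 on the plus strand) encodes a voltage-gated potassium channel of heart and epithelia. It was at 8.40 and 8.39 TPM in UF1hypo shScr, against 3.302 and 2.88 in UF1hypo shUHRF1, while the HCT116 libraries lay between 5.60 and 6.76. The 2 knockdown libraries of UF1hypo were the lowest of the 8, and the log2 fold change was -1.201 ± 0.20 (SE, adjusted p = 0.00859). The call was lost when either UF1hypo shScr library was left out, with adjusted p up to 0.081, and with the 4 libraries of the comparison alone, where it was 0.070. KCNQ1OT1, the antisense RNA inside KCNQ1, was at 0.262 and 0.309 TPM in UF1hypo shUHRF1 and at most 0.153 in the other libraries, and 2.72% of the exonic bases of KCNQ1 lie opposite to it.

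NNAT (ENSG00000053438.11; chromosome 20, 37521206 to 37523690 on the plus strand), the paternally expressed neuronatin gene, lies within an intron of BLCAP. It was at 0.762 and 0.898 TPM in UF1hypo shScr, against 3.41 and 2.26 in UF1hypo shUHRF1, and the HCT116 libraries lay between 0.486 and 0.849. Both knockdown libraries of UF1hypo were above the other 6 and the only ones above 1 TPM, with a log2 fold change of 1.05 ± 0.26 (SE, adjusted p = 0.0366), which passed each threshold by little and was lost in 9 of 13 alternative fits, where the fold change ran from 0.68 to 1.63. With replicate 1 of UF1hypo shUHRF1 left out it was 0.83, and it was no longer called without either UF1hypo shScr library. BLCAP shares 6.40% of the exonic bases of NNAT on the opposite strand and was at 47.0 and 47.3 TPM in UF1hypo shScr, against 49.7 and 48.0 in UF1hypo shUHRF1.

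Among the members that were not called, NLRP2 and GRB10 passed the adjusted p but not the fold. NLRP2, an NLR family gene with a role in the oocyte, was at 54.6 and 59.9 TPM in UF1hypo shScr, against 95.4 and 90.3 in UF1hypo shUHRF1, with a log2 fold change of 0.69 ± 0.15 (SE, adjusted p = 0.0213). GRB10 encodes an adaptor that restrains signalling from the insulin and IGF1 receptors. It was at 11.4 and 12.7 TPM in UF1hypo shScr, against 21.7 and 20.6 in UF1hypo shUHRF1, with a log2 fold change of 0.77 ± 0.18 (adjusted p = 0.0327). In both genes the knockdown libraries lay above the controls. KLF14, a zinc finger transcription factor gene, was at 2.05 and 1.04 TPM against 4.75 and 3.10, and PLAGL1, a zinc finger gene that restrains cell growth, at 29.7 and 28.1 TPM against 45.5 and 41.7. Neither passed the test, with log2 fold changes of 0.96 (adjusted p = 0.086) and 0.58 (adjusted p = 0.0644). KLF14 was called without UF1hypo shUHRF1 replicate 2, where its log2 fold change was 1.204 and its adjusted p 0.039.

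The clone was compared with its parental line by setting UF1hypo shScr against HCT116 shScr. H19, FAM50B, PEG10 and CPA4 were higher in the clone and GRB10 and MEST were lower. Of 26 members tested, 4 were called higher (15.4%), where 1.96% of all genes were, and 2 were called lower (7.69%), where 0.682% of all genes were. The median log2 fold change was 0.22 over the members and -0.05 over all genes tested.

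H19 had a mean of 2.51 ± 0.24 TPM in HCT116 shScr and 133 ± 6.02 in UF1hypo shScr (SD, n = 2), a ratio of 52.8, and its log2 fold change of 5.25 ± 0.21 (SE, adjusted p = 3.24e-06) stayed called with each of the 4 libraries left out, between 5.18 and 5.32. The UF1hypo shScr libraries are the controls of the knockdown as well, so that the rise of H19 in the clone and its rise in the knockdown share them.

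FAM50B (ENSG00000145945.7; chromosome 6, 3849373 to 3851320 on the plus strand) is a paternally expressed retrotransposed copy of FAM50A, and how reads common to both were divided is not given in the sources used here. In HCT116 it was at 0.625 and 2.25 TPM with shScr and 1.26 and 1.91 with shUHRF1, and in UF1hypo at 7.68 and 7.66 with shScr and 17.1 and 13.3 with shUHRF1. All 4 UF1hypo libraries lay above all 4 HCT116 libraries. The clone had a log2 fold change of 1.91 ± 0.34 (SE, adjusted p = 0.0163), and the knockdown in UF1hypo one of 0.89 ± 0.34 (adjusted p = 0.14), which was not called.

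PEG10 (ENSG00000242265.6; chromosome 7, 94656325 to 94669695 on the plus strand), a paternally expressed gene derived from a retrotransposon and needed for the placenta, was at 4.54 and 3.93 TPM in HCT116 shScr and 13.8 and 12.9 in UF1hypo shScr. The knockdown libraries were at 3.72 and 3.81 TPM in HCT116 and 12.03 and 15.9 in UF1hypo, so that all 4 UF1hypo libraries lay above all 4 HCT116 libraries. Its log2 fold change between the lines was 1.46 ± 0.21 (SE, adjusted p = 0.00701). SGCE, which encodes epsilon-sarcoglycan and shares a start region with PEG10 on the opposite strand, was at 6.92 and 8.17 TPM in HCT116 shScr and 13.8 and 17.8 in UF1hypo shScr, with a log2 fold change of 0.97 ± 0.27 that did not pass (adjusted p = 0.107). The 2 genes share 219 exonic bases, 3.27% of PEG10 and 1.05% of SGCE.

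CPA4 was at 26.9 and 24.7 TPM in HCT116 shScr against 67.6 and 60.7 in UF1hypo shScr, with a log2 fold change of 1.28 ± 0.18 (SE, adjusted p = 0.00553). GRB10 (ENSG00000106070.20; chromosome 7, 50590063 to 50793462 on the minus strand) was at 42.4 and 35.9 TPM in HCT116 shScr and 11.4 and 12.7 in UF1hypo shScr. Both clone libraries were below both parental libraries, the mean was lower by a ratio of 3.25, and the log2 fold change was -1.62 ± 0.19 (SE, adjusted p = 0.00209). MEST (ENSG00000106484.16; chromosome 7, 130486171 to 130506465 on the plus strand), a paternally expressed gene of the alpha/beta hydrolase family, was at 45.7 and 37.6 TPM in HCT116 shScr and 19.5 and 17.7 in UF1hypo shScr. Its log2 fold change was -1.12 ± 0.19 (SE, adjusted p = 0.0159), and the knockdown libraries were at 40.1 and 34.6 TPM in HCT116 and 14.02 and 17.3 in UF1hypo. MESTIT1 lies opposite to 10.2% of the exonic bases of MEST and was at most 0.126 TPM.

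KCNK9, which encodes the potassium channel TASK-3, had the second largest log2 fold change between the lines at 2.05 ± 0.49 (SE, adjusted p = 0.0656), and it was not called. Its libraries were at 4.18 and 0.692 TPM in HCT116 shScr and 7.94 and 15.8 in UF1hypo shScr. The replicates differed widely in both lines. KCNK9 was called in 3 of 12 alternative fits that kept all 4 libraries, where its adjusted p ran from 0.0263 to 0.234. It was also called, at a log2 fold change of 2.86, when HCT116 shScr replicate 1 was left out. When a library was left out, the arm with a single library was taken to vary like the other groups, and between 2 and 3 members were then called in place of 6. CPA4 (adjusted p up to 0.103), PEG10 (up to 0.113) and MEST (up to 0.225) lost their calls without any of the 4 libraries, FAM50B (up to 0.183) without 3 of them, HCT116 shScr replicate 2 being the exception, and GRB10 (0.0544) without HCT116 shScr replicate 1.

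**Figure D2:**
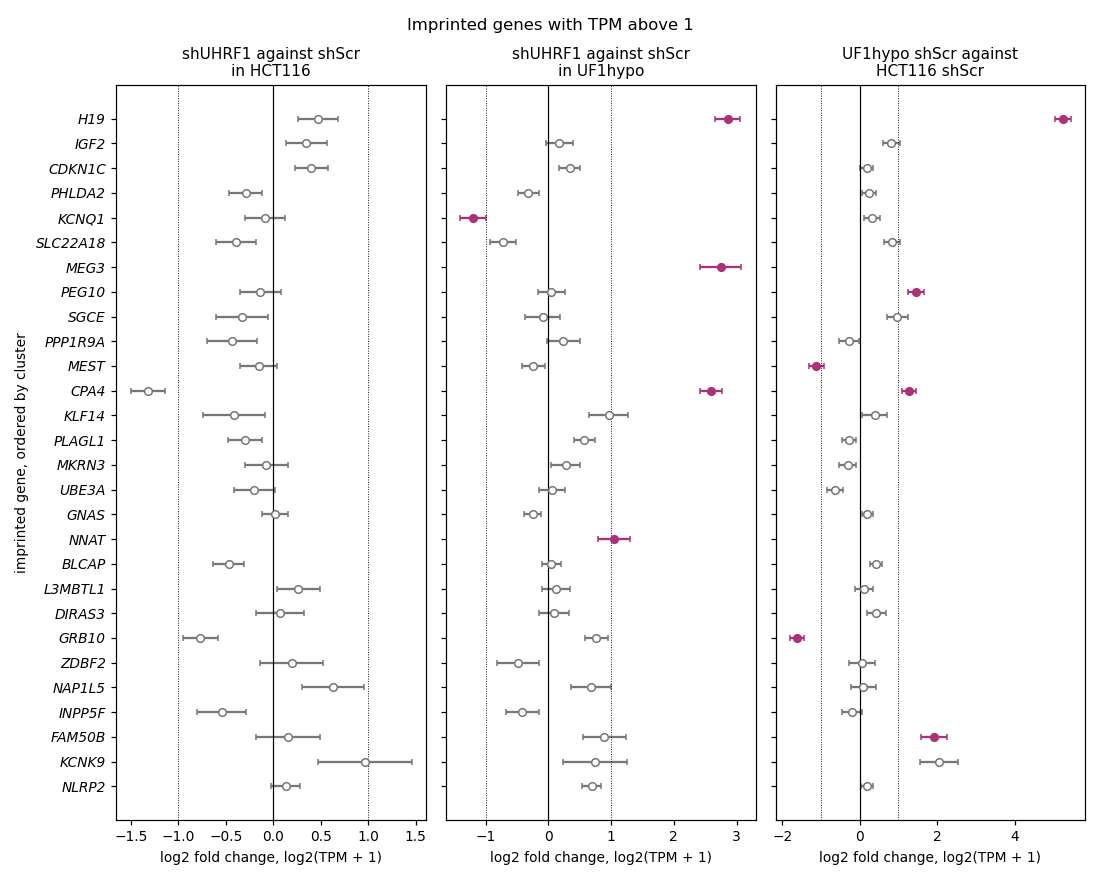
Log2 fold change of log2(TPM + 1) with its SE for each imprinted gene tested, for shUHRF1 against shScr in each line and for UF1hypo shScr against HCT116 shScr. Filled points are called and dotted lines mark a log2 fold change of 1 and -1, on axes that differ between panels. No point is filled in HCT116, 5 are filled in the UF1hypo knockdown and 6 between the lines.

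In HCT116, the knockdown of UHRF1 from the wild-type level was followed by no called member. Of 26 members tested, 0 were called, where 0.0177% of all genes were, and 5 had an unadjusted p below 0.05, among 1039 of all 16946 genes tested. The same rule did not call UHRF1, the target of the hairpin, at a log2 fold change of -1.50 (adjusted p = 0.0743). The lack of calls therefore does not show that the members did not respond in HCT116. The median log2 fold change of the members was -0.11 and that of all genes -0.04. CPA4 had the largest, with 26.9 and 24.7 TPM in the control and 8.46 and 11.1 in the knockdown. Both knockdown libraries were below both controls, and the mean stood at 37.9% of the control. Its log2 fold change of -1.32 ± 0.18 (SE, adjusted p = 0.0628) missed the threshold, and it was called with a pseudocount of 0.1 (adjusted p = 0.0499), with the 4 libraries of the comparison alone (0.00296) and after the GC and length correction (0.00589). The range of its adjusted p over the 12 alternatives that kept all 4 libraries was 0.00296 to 0.226.

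GRB10 in HCT116 was at 42.4 and 35.9 TPM in the control and 24.7 and 20.5 in the knockdown, with no overlap and a log2 fold change of -0.77 ± 0.19 (SE, adjusted p = 0.344). KCNK9 was at 4.18 and 0.692 TPM against 5.63 and 4.05, and its log2 fold change of 0.97 ± 0.49 (SE, adjusted p = 0.888) came from overlapping groups. NAP1L5, a nucleosome assembly protein family gene, was at 0.984 and 2.17 TPM against 2.85 and 2.91 (log2 fold change 0.63, adjusted p = 0.897). INPP5F, a phosphoinositide phosphatase gene, was at 21.1 and 23.1 TPM against 16.2 and 13.6 (log2 fold change -0.54, adjusted p = 0.847). Neither of these passed the test. H19 stayed low in HCT116, with a mean of 2.51 ± 0.24 TPM in the control and 3.91 ± 0.80 in the knockdown (SD, n = 2) and a log2 fold change of 0.47 ± 0.21 (SE, adjusted p = 0.803).

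The difference between the knockdown effects in the 2 lines was tested as a contrast of its own, the UF1hypo effect minus the HCT116 effect. It was positive and called for CPA4, MEG3, H19 and GRB10. Of 28 members tested, 4 were called higher (14.3%), where 2.66% of all genes were, and 0 were called lower, where 0.299% were. In either direction 10 of the members had an unadjusted p below 0.05 in the limma fit, as did 3336 of all 19728 genes tested. MEG3 passed the filter through UF1hypo shUHRF1 alone and was listed at 0 in HCT116, so its difference could only be positive. How many of all genes called higher passed in that way was not counted for this contrast. The median of this difference was 0.21 over the members and 0.12 over all genes. Over all genes 89.9% of the calls were higher, and 69.5% after the GC and length correction.

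CPA4 had the largest difference, 3.91 ± 0.25 (SE, adjusted p = 0.000284), from a fall to 37.9% of the control mean in HCT116 and a rise of 6.10 times in UF1hypo, though the fall in HCT116 was not itself called. GRB10 had a difference of 1.53 ± 0.26 (SE, adjusted p = 0.0202). Its knockdown libraries lay at 24.7 and 20.5 TPM in HCT116 and at 21.7 and 20.6 in UF1hypo, so the levels of the 2 lines, which did not overlap under shScr, overlapped under shUHRF1. The difference was 2.39 ± 0.29 (SE, adjusted p = 0.0049) for H19 and 2.75 ± 0.48 (adjusted p = 0.0225) for MEG3, whose HCT116 libraries were all listed at 0. KLF14 had the fifth largest value, 1.37 ± 0.44 (SE, adjusted p = 0.153), and was not called. KCNQ1 had a difference of -1.12 ± 0.29 (SE, adjusted p = 0.0887), which was not called either. It was called lower in 2 of 11 alternative fits that kept all 8 libraries, where its adjusted p ran from 0.0106 to 0.152. The calls for GRB10 and MEG3 were lost without each of the 4 HCT116 libraries and each of the 2 UF1hypo shScr libraries, with adjusted p up to 0.134 and 0.125, and that for H19 without HCT116 shScr replicate 2 (0.0547). CPA4 stayed called with each of the 8 libraries left out, with adjusted p up to 0.00966.

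**Figure D3:**
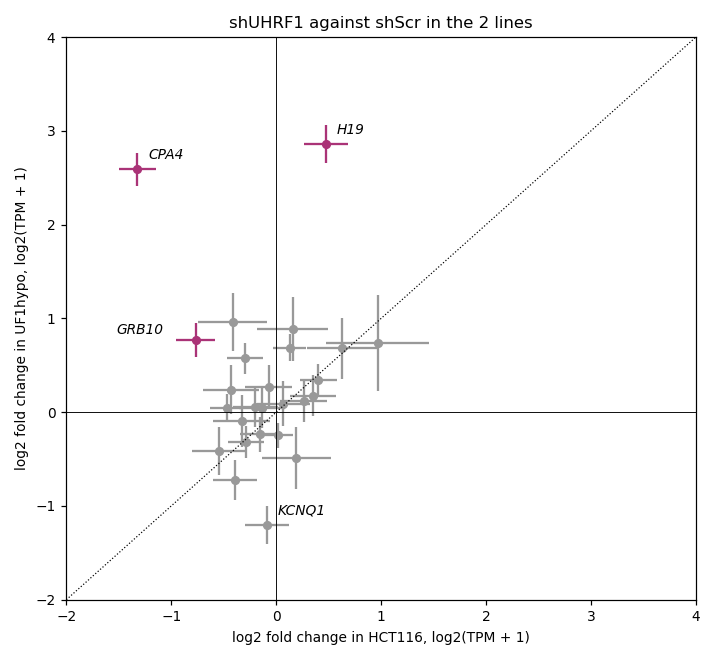
Log2 fold change (of log2(TPM + 1), with SE bars) after UHRF1 knockdown in HCT116 on the horizontal axis and in UF1hypo on the vertical axis, for the 26 members tested in both. The dotted line marks equal change. Coloured points are called for the difference between the lines: CPA4 and GRB10 lie at negative values in HCT116 and positive values in UF1hypo, and H19 lies far above the line. MEG3 and NNAT are not shown because they were not tested in HCT116.

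Members of the same cluster were read side by side. In the 11p15 cluster, where a paternally methylated region sets H19 against IGF2, H19 changed and IGF2, a fetal growth factor gene, did not pass the test in any comparison. In HCT116, IGF2 was at 11.2 and 9.08 TPM with shScr and 12.98 and 13.2 with shUHRF1, and in UF1hypo at 16.0 and 21.1 with shScr and 23.6 and 18.5 with shUHRF1. The UF1hypo shScr libraries lay above those of HCT116 shScr, with a log2 fold change of 0.81 ± 0.22 (SE, adjusted p = 0.096), and the UF1hypo groups overlapped. The exons of IGF2 share 37.9% of their bases with the gene ENSG00000284779 and 20.4% with the readthrough gene INS-IGF2, both on the same strand, so its value is uncertain. CDKN1C, a cyclin-dependent kinase inhibitor gene, lay between 19.2 and 29.7 TPM. SLC22A18, a transporter gene, was at 50.2 and 52.2 TPM in UF1hypo shScr, against 37.3 and 25.1 in UF1hypo shUHRF1 (log2 fold change -0.72, adjusted p = 0.0641), and it was called at -1.02 after the GC and length correction.

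In the 14q32 cluster, MEG3 was the only member tested. MEG8, a further non-coding RNA of the cluster, was at 0.014 and 0.601 TPM in UF1hypo shUHRF1 and at most 0.033 in the other libraries. The paternally expressed DLK1, which encodes a Notch ligand relative, was at 0.726 and 0.908 TPM in UF1hypo shUHRF1, 0.143 and 0.407 in UF1hypo shScr and at most 0.305 in HCT116. RTL1, a retrotransposon-derived gene needed in the placenta, was at 0.579 and 0.601 TPM in UF1hypo shUHRF1, 0.294 and 0.265 in UF1hypo shScr and at most 0.059 in HCT116. In DLK1 and RTL1 both UF1hypo shUHRF1 libraries were the highest of the 8, at levels too low to be tested. Of the exonic bases of RTL1, 24.3% lie opposite to the gene MIR493HG, so its value is uncertain.

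In the 7q32 cluster, the maternally expressed CPA4 and KLF14 stand beside the paternally expressed MEST. In UF1hypo the knockdown had log2 fold changes of 2.59 for CPA4, 0.96 for KLF14 and -0.24 for MEST, of which only that of CPA4 was called. In the clone against its parent they were 1.28, 0.38 and -1.12, called for CPA4 and MEST in opposite directions. In the 7q21 cluster, PPP1R9A, which encodes neurabin, lay between 2.60 and 5.43 TPM and was not called in any comparison. On 20q, GNAS, BLCAP and L3MBTL1, a chromatin reader gene, were not called in any comparison, and L3MBTL1 lay between 8.35 and 12.4 TPM. The GTPase gene DIRAS3 lay between 1.89 and 3.83 TPM and ZDBF2, a zinc finger gene, between 1.25 and 4.22, and neither was called.

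The members were grouped by the normally expressed allele from textbook knowledge, which for some genes may hold only in certain tissues or isoforms. GNAS, GRB10 and BLCAP were in neither group for that reason. Of 12 maternally expressed genes tested in the UF1hypo knockdown, H19, CPA4 and MEG3 were called higher and KCNQ1 lower. Of 13 paternally expressed genes tested, NNAT was called (7.69%), where 8.25% of all genes tested were called in either direction. The median log2 fold change was 0.51 in the first group and 0.12 in the second. MEG3 and NNAT are in these counts and medians, though they passed the filter through UF1hypo shUHRF1 alone and could only be higher there. H19, CPA4 and KCNQ1 were above 1 TPM with shScr and with shUHRF1. In the clone against its parent, H19 and CPA4 were called of 11 maternally expressed genes, and FAM50B, PEG10 and MEST of 12 paternally expressed ones, where 2.64% of all genes were called. A further list held 16 members with a promoter taken to lie in a control region methylated in the oocyte. Some have several promoters, such as PLAGL1 and GRB10 with 5 listed starts each, and the TPM of a gene cannot be assigned to any of them. Of these 16, 10 were tested in the UF1hypo knockdown and 1, NNAT, was called, beside the 8.25% of all genes. Of the other 18 members tested, 4 were called, MEG3 among them. In the clone against its parent, PEG10 and FAM50B were called higher and MEST and GRB10 lower of 9 such members. H19 and CPA4 were called higher of the other 17. Over all genes, 1.96% were called higher and 0.682% lower in that comparison. Whether these groups differ was not tested.

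The RNA of imprint maintenance and DNA methylation factors, with the demethylase genes TET1, TET2 and TET3 among them, was read from the same fits. Of 18 such genes, 13 were tested in the UF1hypo knockdown and 1 was called (7.69%, against 7.33% of all genes called higher), CTCFL, the germline paralogue of CTCF. It was listed at 0 in the 6 libraries of the other groups and was at 8.86 and 11.3 TPM in UF1hypo shUHRF1, through which alone it passed the filter, with a log2 fold change of 3.46 ± 0.23 (SE, adjusted p = 0.000106). DNMT1 lay between 147 and 204 TPM and was not called. ZFP57 was at most 0.159 TPM, and ZNF445 lay between 5.07 and 7.499 TPM. No gene of this list was called in HCT116 (13 tested) or between the lines (13 tested).

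Of 50 genes that neighbour the members in their clusters, 48 were found and 26 were tested in the UF1hypo knockdown. There 4 were called higher (15.4%) and 0 lower, where 7.33% and 0.922% of all genes were: AURKC, the germ cell Aurora kinase near PEG3, TH, the tyrosine hydroxylase gene near IGF2, the protease inhibitor gene TFPI2 and the cation channel gene TRPM5. TH, TFPI2 and TRPM5 exceeded 1 TPM in UF1hypo shUHRF1 only, and so could only be higher there. Of the 20 neighbours above 1 TPM in both groups 1, AURKC, was called higher (5%), where 4.29% of all such genes were. AURKC was at 0.696 and 1.44 TPM in UF1hypo shScr, against 12.9 and 17.2 in UF1hypo shUHRF1, with a log2 fold change of 2.97 ± 0.36 (SE, adjusted p = 0.00179). TH was at 0.633 and 0.582 TPM against 5.51 and 2.41, with a log2 fold change of 1.55 ± 0.32 (adjusted p = 0.019). In both genes the knockdown libraries lay above all others. Between the lines 1 of 21 neighbours tested was called (4.76%, against 1.96% of all genes called higher), BEGAIN beside DLK1, at 4.96 and 5.39 TPM in HCT116 shScr and 16.3 and 27.4 in UF1hypo shScr (log2 fold change 1.84, adjusted p = 0.0185), and in HCT116 0 of 21 were. The neighbour median in the UF1hypo knockdown was 0.05, against 0.21 for the members and 0.10 for all genes tested.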

How the data were processed

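RNA-seq of HCT116 and UF1hypo cells with shScr or shUHRF1 gave 8 libraries, 2 per group. The authors used Fastp for trimming, HISAT2 2.0.4 for alignment to GRCh38 and StringTie 2.1.4 for gene abundances (versions from the submitters' processing notes). The deposited coverage is the mean read coverage per base. The deposited FPKM and TPM are normalized by the authors for gene length and for the library, TPM to the same total. The tables used here hold no read counts, so depth came from the ratio of coverage to FPKM, no counting interval was formed, and 0 is given as listed at 0. The strand setting of the quantification is not given in the sources used here, so antisense and overlapping genes are uncertain. Of the members, 26 share exonic bases with another gene of GENCODE 44.

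Genes in GENCODE 44 with TPM above 1 in at least 1 library of a contrast were tested on log2(TPM + 1) with limma 3.58.1 in R 4.3.3, all 4 groups in a single fit, variances following the mean, and Benjamini-Hochberg adjustment over all genes tested. The authors' methods used protein-coding genes and a count-based test. All annotated genes were kept here because 6 members are non-coding. All members are accounted for, and full statistics are given for the called members and the 5 with the largest absolute log2 fold change in each contrast. Neighbouring and methylation genes named are the called ones and those chosen after their values were seen. Nothing in the labels says that the 2 libraries of a group are separate cultures, so the p-values measure the spread between libraries, which may be technical. With 2 libraries against 2, an exact two-sided permutation test of a single gene cannot go below p = 0.33. The fit was tested on simulated data. Alternatives were another pseudocount, other filters, protein-coding genes, only the 4 libraries compared, FPKM, 2 scalings, untrended variances, duplicate records, a GC content and length correction, a replicate block and each library left out. The members and lists were chosen with earlier results of these data known. Python 3.11.15 with numpy 2.4.6, pandas 2.3.3 and matplotlib 3.10.9 was used for tables and figures.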

Additional observations from a re-analysis of the deposited data

Results flagged for a closer look

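The change after UHRF1 knockdown differed between UF1hypo and HCT116 for 4 imprinted genes, by the test of the difference itself on the log2(TPM + 1) scale. The difference, UF1hypo minus HCT116, was 3.91 for CPA4, 2.75 for MEG3, 2.39 for H19 and 1.53 for GRB10. In CPA4 and GRB10 the knockdown libraries lay below their controls in HCT116 (2 of 2 each) and above them in UF1hypo (2 of 2 each). In H19 they lay above the controls in both lines. MEG3 was listed at 0 in all HCT116 libraries, so its difference is the same value as its change in UF1hypo and could only be positive. Outlying libraries were not tested for, since each group has 2.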

How the results depend on the processing

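The alternatives were computed for the 42 member values that were called or had an absolute log2 fold change above 0.5, and none of these changed direction. The members nearer to 0 were not followed. The count of called members moved by over 1.5 times in these cases. In HCT116 it was 1, CPA4, in place of 0 with a pseudocount of 0.1, with the 4 libraries of the contrast alone, and after the GC content and length correction. In the UF1hypo knockdown it was 3 in place of 5 with the 4 libraries alone, where KCNQ1 and NNAT lost their calls, and 3 with protein-coding genes only, where H19 and MEG3 are not tested. For the difference between the lines it was 2 in place of 4 with protein-coding genes only, for the same reason. With each library left out in turn it ran from 3 to 6 in the UF1hypo knockdown, from 2 to 3 between the lines and from 1 to 6 for the difference, and it was 0 in HCT116. Over all genes, the calls in HCT116 numbered 3, 78 with the 4 libraries alone and 69 after the GC content and length correction, and those of the UF1hypo knockdown 1548, 589 with the 4 libraries alone and 3038 without UF1hypo shUHRF1 replicate 2. Without a TPM filter, MEST (adjusted p = 0.055) and FAM50B (0.11) lost their calls between the lines, and MEG3 (0.0546) lost its call for the difference, as it did after quantile normalization (0.0642).

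The replicate block gave 0, 4, 6 and 4 called members for HCT116, the UF1hypo knockdown, the lines and the difference. It ended the call of NNAT and of no other member. Same-numbered replicates did not deviate together, with correlations between -0.26 and 0.01, and the lowest was between the UF1hypo groups. Exchanging the numbers there, a choice made after seeing the data, gave 4 called members and 1538 genes in the UF1hypo knockdown. Depth limits the genes near 0, which were not tested.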
